A study of Mus musculus with 8 samples.

Results

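The RNA exosome is a multi-subunit machine that degrades and trims RNA from its 3′ end, and the messenger RNAs (mRNAs) of 10 of its subunits were followed here in pull-downs of Exosc10 from embryonic mouse cortex. The 10 were picked as genes of 1 complex by their Ensembl IDs, not by their measured values: Exosc10, Dis3, Exosc1, Exosc2, Exosc3, Exosc4, Exosc5, Exosc7, Exosc8 and Exosc9. They are 10 of 54838 gene IDs counted in the series. All 10 had enough reads to be tested, as did 16716 genes in all.

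The study applied RNA immunoprecipitation followed by sequencing (RIP-seq), in which a protein is captured from lysed cells by its antibody and the co-captured RNA is sequenced. Cells dissociated from the cortex of C57BL/6 mice at embryonic day 12.5 were lysed, and a rabbit antibody to Exosc10 was used in 4 libraries and normal rabbit IgG, as a mock pull-down, in the other 4. No genetic change or treatment is named for any sample, so the antibody is the only labelled difference. Total counts ran from 21731971 to 34506709 in the Exosc10 group and from 20967743 to 30199449 in the IgG group.

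The exosome core is a barrel. Exosc4, Exosc5, Exosc6, Exosc7, Exosc8 and Exosc9 form its ring, Exosc1, Exosc2 and Exosc3 form a cap on the ring that RNA passes on its way in, and the ring and cap of the mammalian complex do not cut RNA themselves. Cutting is done by attached ribonucleases, among them Dis3 and, in the nucleus and nucleolus, Exosc10. The complex matures ribosomal and small nuclear RNAs and removes faulty or short-lived transcripts, and inherited defects of several subunits, Exosc3 among them, cause loss of neurons in the human hindbrain. Exosc6 was not analysed here.

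Among the 10 subunit mRNAs, that of Exosc10 itself differed most between the pull-downs. Its share of the reads, after scaling between libraries, was 2.81-fold larger in the Exosc10 pull-down than in the mock pull-down. The mRNA of the cap subunit Exosc3 was also higher, 1.52-fold, and no subunit mRNA was called lower. By edgeR's quasi-likelihood test, read at an adjusted p of 0.05, 2 of the 10 were thus higher and 0 lower, beside 7.92% (higher) and 5.82% (lower) of the 16716 genes. Among the 6214 tested genes within the subunits' own range of abundance, a mean of 23.96 to 133.1 CPM (a gene's reads at a common library size), 12.2% were higher and 6.66% lower. A count of 2 in 10 is not far from these shares, so it says little about the subunits as a set. At an unadjusted p under 0.05 the subunits numbered 4, of which 1, Exosc8, had a log2 fold change below 0. In the same edgeR ranking 4094 of the 16716 tested genes stood ahead of Exosc8, so at least that many also passed this limit. The count of 4 in 10 therefore says little about the subunits as a set. After adjustment DESeq2 called 0 lower, beside 9.11% of all genes, and limma-voom called 1, Exosc8, beside 18.0%.

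CPM values below were scaled between libraries by TMM (edgeR's trimmed mean of M-values). Each is a scaled share of a pull-down, so a higher value does not show that more of an RNA was recovered. No input RNA was analysed to set either pull-down against the content of the cells. In bulk lysates, more cells that hold an RNA and more of it in each cell cannot be told apart. Transcript lengths were not used here, so the levels of different subunits are not compared with each other, only each subunit between pull-downs.

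**Figure D1:**
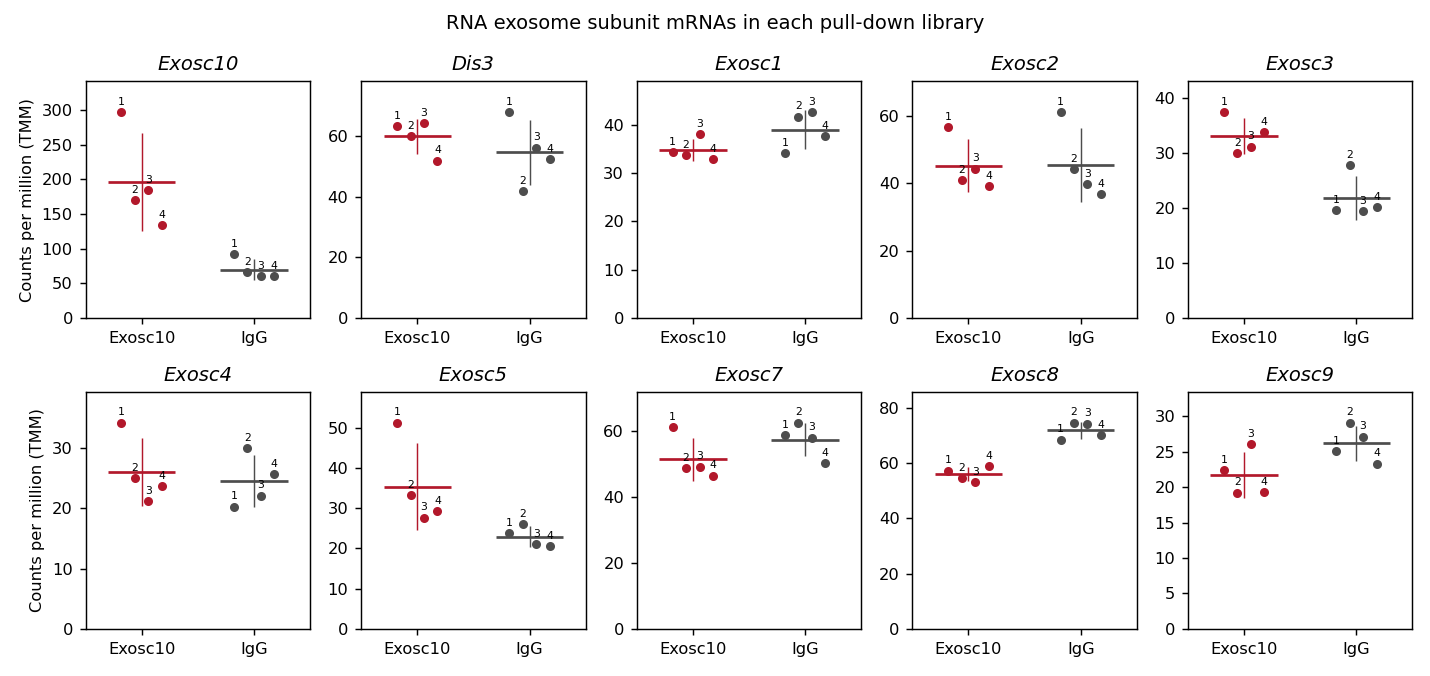
CPM (TMM-scaled, linear axis from 0, a separate scale in each panel) of the 10 subunit mRNAs in 4 Exosc10 and 4 IgG libraries; points are libraries with their numbers, the horizontal line is the group mean and the vertical line is 1 SD either way. The 4 Exosc10 libraries lie above the 4 IgG libraries for Exosc10, Exosc3 and Exosc5 and below them for Exosc8, and the groups overlap in the other 6 panels.

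Of the attached ribonucleases, Exosc10 (ENSMUSG00000017264; chromosome 4, 148558419 to 148582401, on GRCm38, the assembly also called mm10) is the protein the antibody was directed to. Its mRNA stood at 296.9, 169.5, 184.8 and 134.1 CPM in Exosc10 libraries 1 to 4. In IgG libraries 1 to 4 it stood at 91.9, 66.7, 60.2 and 60.5 CPM. Every Exosc10 library lay above every IgG library, and library 1 was the highest of both groups. The means were 196.3 ± 70.3 and 69.8 ± 15.03 CPM (SD, n = 4 each). The log2 fold change, Exosc10 over IgG, was 1.49 ± 0.24 (SE), and its 95% confidence interval ran from 0.97 to 2.01, or 1.96-fold to 4.04-fold (edgeR adjusted p = 0.00252).

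Only 66 of the 16716 tested genes, or 0.395%, had a larger log2 fold change. Of the 1898 genes at least as abundant as Exosc10, itself included, 9 exceeded it. The spread in the Exosc10 group was wide, with a coefficient of variation of 35.8% against 21.5% in the IgG group. Counting error was small beside that spread: the libraries held 1458 to 6409 Exosc10 reads, and the counting error of the highest of these counts was 1.25%. Without Exosc10 library 1, the highest, the log2 fold change fell to 1.23 (edgeR adjusted p = 0.00126), and without both libraries numbered 1 it was 1.38 (adjusted p = 1.82e-05).

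Dis3 (ENSMUSG00000033166; chromosome 14, 99076634 to 99099780), the processive ribonuclease at the bottom of the barrel, showed no such separation. Its mRNA ranged from 51.9 to 64.2 CPM in the Exosc10 libraries and from 41.9 to 67.9 CPM in the IgG libraries, where the lowest and the highest of all 8 values lay. The fold change was 0.13 ± 0.18 on the log2 scale (SE), with an interval of -0.25 to 0.51 (edgeR adjusted p = 0.656). The upper end of that interval lies below the lower end of the interval of Exosc10.

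A comparison within each library needs no scaling. Exosc10 took 41.5%, 32.9%, 34.2% and 28.6% of the reads of the 10 subunits in Exosc10 libraries 1 to 4. In IgG library 1 the share was 19.5%, and in the other 3 it was 14.3% to 15.2%. The groups did not overlap, at 34.3% ± 5.4 and 16.0% ± 2.4 (SD, n = 4 each). The size of the share depends on transcript length, which is the same in both groups, so only its difference is read. The ratio of Exosc10 reads to Dis3 reads was 2.59 to 4.69 in the Exosc10 group and 1.07 to 1.59 in the IgG group. Set against each of the other 9 subunits in turn, the ratio did not overlap between the groups for 8 of them. The exception was Exosc3, with ratios of 3.96 to 7.91 in the Exosc10 group and 2.39 to 4.67 in the IgG group. All 9 ratios share the Exosc10 reads, so they largely repeat the separation of Exosc10 itself and are not separate results.

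The other 9 subunits together showed no shift. Their summed level was 363.5 ± 37.2 CPM in the Exosc10 group and 363.8 ± 19.6 CPM in the IgG group (SD, n = 4 each), and the median of their log2 fold changes was -0.01. Over all 10 subunits the median was 0.04, and over all tested genes it was -0.03, with quartiles of -0.40 and 0.34. Within that sum the single subunits differed in sign, 4 of the 9 fold changes being above 0 and 5 below.

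**Figure D2:**
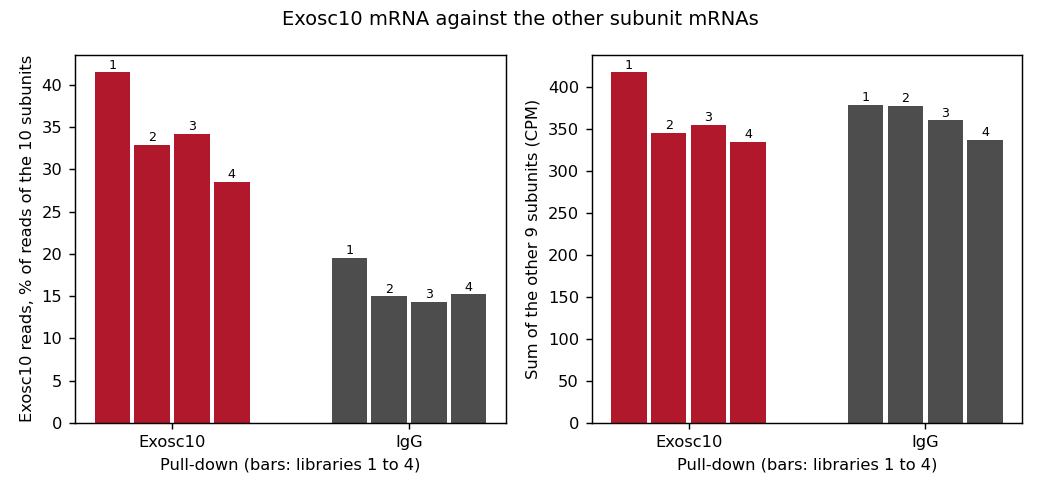
Left, reads of Exosc10 as a percent of the reads of the 10 subunits in each library; right, summed CPM (TMM-scaled) of the other 9 subunits; bars are single libraries numbered 1 to 4, and both axes start at 0. The Exosc10 share runs from 28.6% to 41.5% in the Exosc10 group and from 14.3% to 19.5% in the IgG group, while the sums on the right overlap.

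Of the cap subunits, Exosc3 (ENSMUSG00000028322; chromosome 4, 45316613 to 45320616), an RNA-binding subunit, was the only called gene. Its mRNA stood at 37.5, 30.1, 31.2 and 33.9 CPM in Exosc10 libraries 1 to 4. In IgG libraries 1 to 4 it stood at 19.7, 27.9, 19.5 and 20.2 CPM. The groups did not overlap, but IgG library 2 lay apart from the other 3 and near the lowest Exosc10 library. The means were 33.2 ± 3.3 and 21.8 ± 4.0 CPM (SD, n = 4 each). The log2 fold change was 0.60 ± 0.18 (SE, interval 0.22 to 0.98), and its edgeR adjusted p of 0.0375 lay close to the threshold. The call was lost without any one of Exosc10 libraries 2, 3 and 4 (adjusted p = 0.0748, 0.0620 and 0.100) or IgG libraries 3 and 4 (0.115 and 0.111), and with upper-quartile scaling (0.0629). In these settings 3.94%, 5.29%, 3.66%, 3.43%, 3.87% and 6.13% of all genes were called higher, against 7.92% in the reported fit. The call held without Exosc10 library 1 (9.52% of all genes) and without IgG library 1 or 2 (13% and 4.66%). The fold change stayed between 0.49 and 0.75 in all 17 alternatives.

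Exosc1 (ENSMUSG00000034321; chromosome 19, 41922978 to 41933423) and Exosc2 (ENSMUSG00000039356; chromosome 2, 31670715 to 31681352) complete the cap, and both carry domains of RNA-binding type. Exosc1 mRNA ranged from 32.9 to 38.1 CPM in the Exosc10 group and from 34.1 to 42.6 CPM in the IgG group. Its difference on the log2 scale was -0.17 ± 0.16 (SE), with an interval of -0.51 to 0.17 (edgeR adjusted p = 0.509). Exosc2 mRNA was nearly the same in both pull-downs, at 45.2 ± 7.9 and 45.4 ± 10.9 CPM (SD, n = 4 each). Its fold change was -0.01 ± 0.20 on the log2 scale (SE, interval -0.43 to 0.42, edgeR adjusted p = 0.987). Its libraries numbered 1 were the highest of their groups, reaching 56.6 CPM in the Exosc10 and 61.1 CPM in the IgG group, against 36.8 to 44.3 CPM in the other 6.

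Of the ring subunits, Exosc5 (ENSMUSG00000061286; chromosome 7, 25659153 to 25668032), which pairs with Exosc8 in the ring, came closest to a call. Its mRNA stood at 51.2, 33.2, 27.6 and 29.2 CPM in Exosc10 libraries 1 to 4. In IgG libraries 1 to 4 it stood at 23.8, 26.1, 21.1 and 20.6 CPM. All 4 Exosc10 values lay above all 4 IgG values, the nearest being 27.6 and 26.1 CPM. The log2 fold change was 0.62 ± 0.21 (SE, interval 0.18 to 1.07), as large as that of Exosc3 but with a wider spread, and the edgeR adjusted p of 0.0603 missed the threshold. Exosc10 library 1 carried much of it, since the log2 fold change without that library was 0.40 (adjusted p = 0.109). DESeq2 called the gene (adjusted p = 0.0317), as did limma-voom with sample weights (0.00735), edgeR without the filter on low counts (0.0246) and edgeR with the library numbers as a block (0.0175). In these settings 11.2%, 20.1%, 5.53% and 14.9% of all genes were called higher, against 7.92% in the reported fit. The other 13 alternatives, among them every fit without 1 library, did not call it.

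Exosc8 (ENSMUSG00000027752; chromosome 3, 54728679 to 54735364), the ring partner of Exosc5, pointed the other way. Its mRNA stood at 57.3, 54.7, 53.2 and 58.9 CPM in Exosc10 libraries 1 to 4. In IgG libraries 1 to 4 it stood at 68.5, 74.7, 74.3 and 70.2 CPM. All 4 Exosc10 values lay below all 4 IgG values, and the spread was the smallest of the 10 subunits, with coefficients of variation of 4.56% and 4.24%. The log2 fold change was -0.36 ± 0.15 (SE, interval -0.68 to -0.04), with an unadjusted p of 0.0289 and an edgeR adjusted p of 0.118. limma-voom called it lower (adjusted p = 0.0191), as did edgeR without both libraries numbered 1 (0.0237), a setting chosen after the data had been seen. In these settings 18.0% and 15.1% of all genes were called lower, against 5.82% in the reported fit. The other 15 alternatives did not call it.

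The fit moderates each gene's dispersion towards that of genes of like abundance, so the narrow spread of Exosc8 counted only in part. The gene-wise biological coefficient of variation that edgeR estimates is itself moderated, so it is not a gene's own spread. It was 0.164 for Exosc8, the lowest of the 10 subunits, and 0.246 for Exosc10, the highest. The common value over all tested genes was 0.265. These gene-wise estimates are not the spread that the quasi-likelihood test used, so they do not show how far the spread of Exosc8 counted.

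The other 3 ring subunits overlapped between the pull-downs. Exosc7 mRNA (ENSMUSG00000025785; chromosome 9, 123113231 to 123136129) averaged 51.4 ± 6.6 CPM in the Exosc10 group and 57.5 ± 5.1 CPM in the IgG group (SD, n = 4 each), for a log2 fold change of -0.16 (interval -0.51 to 0.19). Exosc9 mRNA (ENSMUSG00000027714; chromosome 3, 36552606 to 36565727), whose product pairs with Exosc4, stood at 21.8 ± 3.3 and 26.2 ± 2.5 CPM (SD, n = 4 each), for a log2 fold change of -0.27 (interval -0.64 to 0.10). Exosc4 mRNA (ENSMUSG00000034259; chromosome 15, 76327397 to 76330670) stood at 26.0 ± 5.7 and 24.5 ± 4.3 CPM (SD, n = 4 each), for a log2 fold change of 0.08 (interval -0.34 to 0.51). None passed the edgeR test, with adjusted p-values of 0.538, 0.318 and 0.813.

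**Figure D3:**
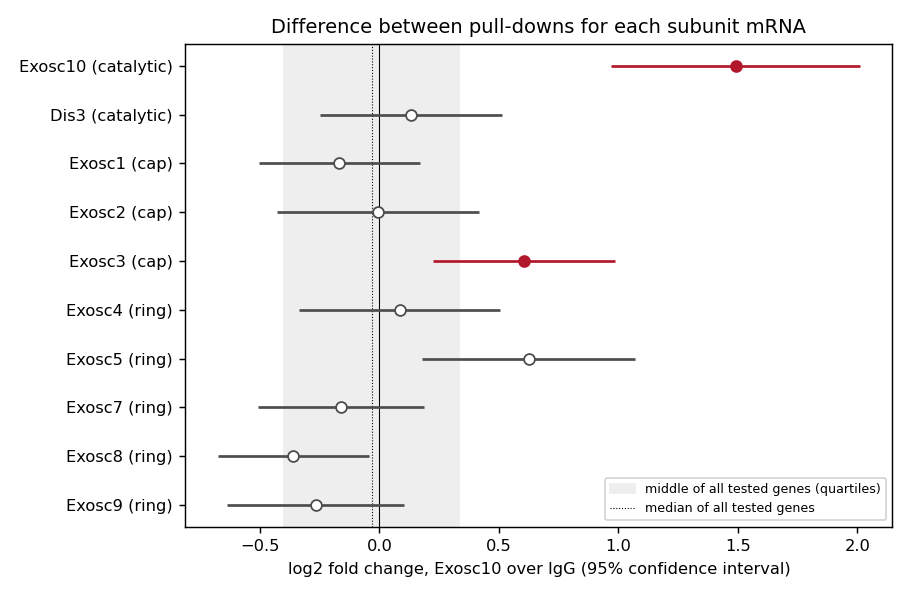
Log2 fold change, Exosc10 over IgG, of each subunit mRNA (points) with its 95% confidence interval (lines), grouped by role; filled red points had an edgeR adjusted p under 0.05, the grey band spans the quartiles of all 16716 tested genes and the dotted line is their median. The interval of Exosc10, 0.97 to 2.01, lies above those of Dis3, Exosc1, Exosc2, Exosc4, Exosc7, Exosc8 and Exosc9 and overlaps those of Exosc3 and Exosc5.

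In the ring partners Exosc5 and Exosc8 the intervals lay on opposite sides of 0, from 0.18 to 1.07 and from -0.68 to -0.04, though neither gene was called. The difference between them was not tested. In the partners Exosc4 and Exosc9 both intervals spanned 0. As a share of the reads of the 10 subunits, the ring fell between 31.7% and 37.8% in the Exosc10 libraries and between 41.7% and 50.0% in the IgG libraries, and the cap between 18.0% and 22.6% and between 23.8% and 25.6%. Shares of a whole move against each other, and a larger share of Exosc10 lowers the shares of ring and cap. They are therefore not read as a separate result. Whether ring and cap also shifted against each other was not tested.

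Counting the groups without a model gave 3 subunits with all Exosc10 libraries above all IgG libraries (Exosc10, Exosc3 and Exosc5) and 1 with all below (Exosc8), while 6 overlapped. Over all tested genes the groups were separated in the higher direction in 10.6% and in the lower direction in 8.45%. With upper-quartile scaling Exosc5 overlapped between the groups, which left 2 above. For the 8 subunits that were not called, the 95% intervals of the log2 fold change together span -0.68 to 1.07, so differences of up to that size remain possible for one or another of them.

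**Figure D4:**
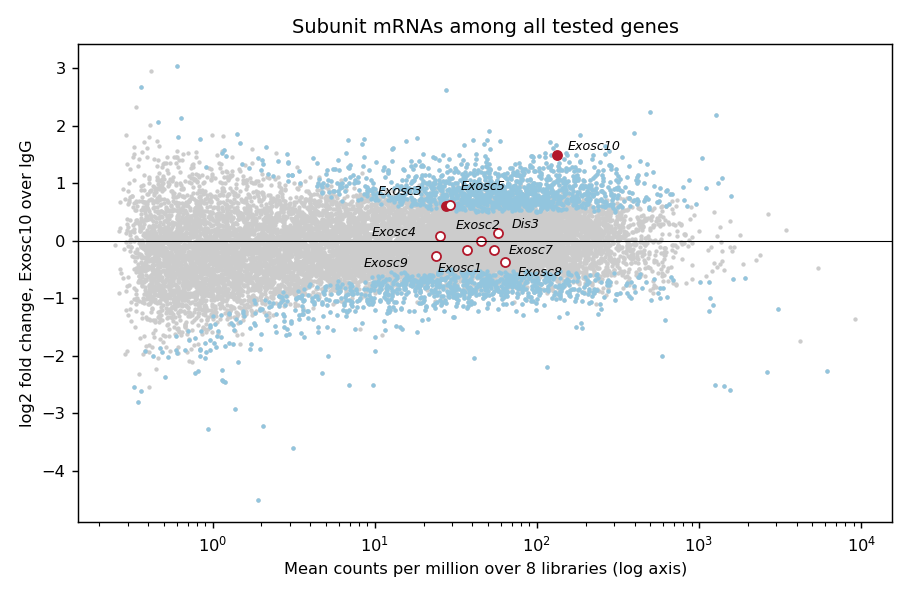
Log2 fold change, Exosc10 over IgG, against mean CPM over 8 libraries (log axis) for the 16716 tested genes; grey points were not called, blue points had an edgeR adjusted p under 0.05, and red circles are the 10 subunits, filled where called. Exosc10, at a mean of 133.1 CPM and a log2 fold change of 1.49, lies near the upper edge of genes of its abundance, and the other 9 lie between -0.36 and 0.62.

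Exosc10 library 1 was the highest of its group for 6 of the 10 subunits and the lowest for 0. IgG library 1 was the highest of its group for 3 and the lowest for 3. The libraries numbered 1 were also those with the lowest totals of their groups, and the part of depth in these values was not tested. The reads of the 10 subunits made up 0.0710% of all counts in Exosc10 library 1 and 0.0465% to 0.0525% in the other 3, and 0.0401% to 0.0501% in the IgG libraries.

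Some of the reads could belong to a neighbour. In the RefSeq annotation of GRCm38.p6, 5 of the 10 subunit genes overlap no other gene, among them Exosc10, Exosc3 and Exosc5. The other 5 do. Exosc4 lies wholly within the span of Oplah, 46.9% of the span of Exosc2 is shared with the noncoding gene Gm13427, 863 bases of Exosc9 with Ccna2, 357 bases of Dis3 with Pibf1 and 85 bases of Exosc8 with Supt20. The strand setting of the counting was not given in the sources used here, so reads from these stretches cannot be assigned with certainty. By share of their span, Exosc4 and Exosc2 overlap most. Spans include introns and exons were not compared, so whether counted bases are shared was not tested.

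The genes whose pattern over the 8 libraries was most like that of Exosc10 mRNA, by Pearson correlation of log2 CPM among all tested genes that are not subunits, were ENSMUSG00000028405 (r = 0.991) and ENSMUSG00000001755 (r = 0.989). Libraries share group, depth and preparation, so these values are a description. ENSMUSG00000028405 stood at 76.9 to 114 CPM in the Exosc10 group and 54.8 to 60.7 CPM in the IgG group, a log2 fold change of 0.71 ± 0.17 (SE, edgeR adjusted p = 0.0154). ENSMUSG00000001755 stood at 64.1 to 95.6 CPM and 34.3 to 41.7 CPM, a log2 fold change of 1.00 ± 0.17 (SE, edgeR adjusted p = 0.00351). Both followed Exosc10 in pattern with a smaller fold change. They were picked by likeness to Exosc10 in these same libraries, where Exosc10 separates the groups. The direction of their fold changes and their small adjusted p-values therefore follow largely from that choice and are not a separate result. Among the subunits the same correlation was highest for Exosc5, at 0.897, and Exosc3, at 0.830, and lowest for Exosc8, at -0.899. Correlations over both groups largely restate the group differences given above, so these too are a description only.

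**Figure D5:**
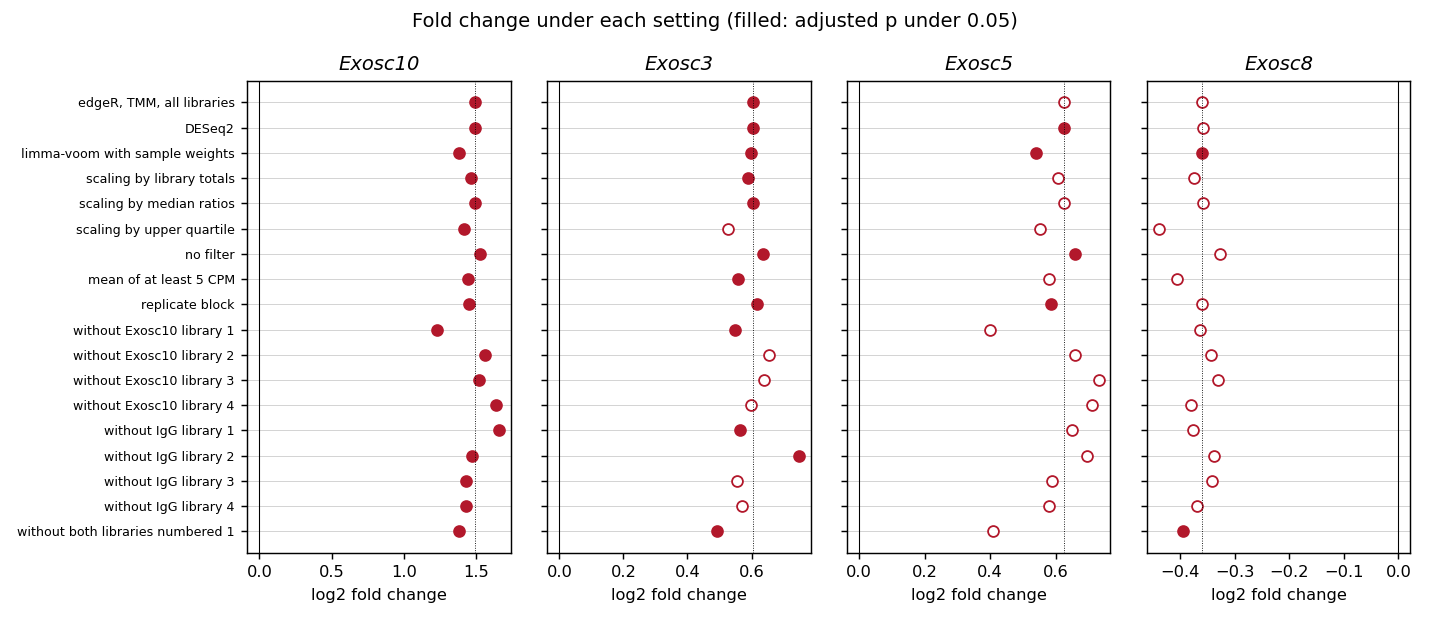
Log2 fold change, Exosc10 over IgG, of Exosc10, Exosc3, Exosc5 and Exosc8 under the reported setting (top line, dotted) and 17 alternatives; each panel has its own scale, and filled points had an adjusted p under 0.05. Exosc10 is filled throughout, between 1.23 and 1.66, Exosc3 in 11 of the 17 alternatives, Exosc5 in 4 and Exosc8 in 2, and no point crosses 0.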

How the data were processed

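The authors deposited 1 file of raw read counts per Ensembl gene ID for each of the 8 libraries. The submitters' processing notes list featureCounts 1.5.0-p1, STAR 2.5.2a, bcl2fastq 2.17.1.14 and the build mm10; for strand setting, annotation release and reads with several hits, the setting is not given in the sources used here. Groups and replicate numbers came from sample titles. The test was that of edgeR 4.0.16 (R 4.3.3): filterByExpr (minimum count 10, minimum total 15), TMM scaling, quasi-likelihood F-test without covariates, Benjamini-Hochberg adjustment over all 16716 genes. SE is the fold change divided by the square root of F. Alternatives used DESeq2 1.42.0, limma 3.58.1, other scalings and filters, a replicate block and fewer libraries. The labels do not say that libraries came from separate cultures or litters, so p-values measure spread that may be technical. No 2 libraries of a group agreed within sampling noise (lowest chi-square 19.5 per gene). Members, lists and tests were chosen with earlier results of these data known. All 10 subunits are named by rule, as are the 2 genes most like Exosc10. Subunit symbols and IDs were paired in the list that defined the set. The RefSeq table (49997 genes) holds 0 Ensembl IDs, so 25 further exosome pathway genes and 21 cell type markers could not be matched, and the labelled tissue was not checked. The tests were tried on simulated data.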

Additional observations from a re-analysis of the deposited data

Results flagged for a closer look

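In 26 groups of 4 libraries, covering the CPM of the 10 subunits, library totals and the shares of subunit reads, 1 had a library far from the others by Dixon's test, which chance alone does in about 1 of 20 groups. It was Exosc3 in the IgG group, where library 2 stood at 27.9 CPM and the others at 19.5 to 20.2 CPM. The gap was 0.910 of the group's range, above the critical value for 4 libraries. Without IgG library 2 the log2 fold change of Exosc3 was 0.75 (edgeR adjusted p = 0.0272), against 0.60 with it.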

How the results depend on the processing

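Exosc10 kept its direction and its call in all 17 alternatives, at log2 fold changes of 1.23 to 1.66 (adjusted p from 5.63e-09 to 0.0149). The number of subunits called higher, 2, was 3 with DESeq2, limma-voom, no filter or the replicate block, where the share of all genes called higher was 11.2%, 20.1%, 5.53% and 14.9%. It was 1 with upper-quartile scaling (6.13% of all genes) and 1 to 2 without 1 library (3.43% to 13.0%). The number called lower, 0, was 1 with limma-voom (18.0% of all genes) and 1 without both libraries numbered 1 (15.1%), a setting chosen after the data had been seen, and 0 without any single library. Separation of the groups in the lower direction held for 1 to 2 subunits without 1 library; it was 2 without Exosc10 library 1 or 3, where 12.9% and 10.5% of all genes were so separated, against 8.45% with all libraries. In the higher direction it held for 3, and for 2 with upper-quartile scaling (8.20% of all genes). Exosc2, with no call, changed sign to 0.062 with limma-voom, 0.028 without the filter, 0.0063 with the replicate block and 0.042 without both libraries numbered 1, and ran from -0.12 to 0.18 without 1 library. Exosc4, also with no call, changed sign to -0.048 with limma-voom and -0.16 without both libraries numbered 1, and ran from -0.068 to 0.20 without 1 library. The causes were not tested. Dis3, Exosc1, Exosc7 and Exosc9 kept their direction without a call throughout.

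Deviations from the group mean correlated between same-numbered libraries at 0.344, 0.0948, 0.338 and 0.221 for numbers 1 to 4. The second lies under 0.1, so by the rule used here the numbers were not taken as pairs. All the correlations were positive and the labels name no pairs, so whether the libraries are paired was not settled. With the replicate block, 3 subunits were called higher, beside 14.9% of all genes against 7.92% without it: Exosc10 (1.45, adjusted p = 0.000106), Exosc3 (0.62, 0.0144) and Exosc5 (0.59, 0.0175). Upper-quartile scaling moved the median of all genes to -0.11 from -0.03 and gave 1025 higher and 1369 lower genes, against 1324 and 973. The pathway list was not run.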
